A study of Mus musculus with 6 samples.

Results

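*Ddx41*, *Dsel*, *Pigh*, *Plxnb2*, *Smg6*, *Vamp8* and *9030617O03Rik* are genes other than *Ctcflos* whose longest annotated transcript carries a run of 13 bases identical to part of the 16-base target site of ASO1. They are 7 of the 52089 gene symbols in the deposited table. In the Gencode vM21 annotation of GRCm38, 12 of 55341 genes had a longest match of exactly 13 bases in their longest transcript, and 11 of these had a symbol in the table. The 7 genes are those of the 11 that also had a mean of at least 1 RPKM (read number divided by transcript length and by library depth) over all libraries, and they are also among the 11701 genes that were tested. *Pigh*, *Ddx41* and *Smg6* had knockdown means under 1 RPKM and passed this filter through their control level. The genes left out by it are described further down.

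*Ctcflos* is a nuclear long noncoding RNA studied here for its part in the differentiation of brite adipocytes, the thermogenic cells that arise in white fat. Precursor cells were isolated from the stromal-vascular cells of inguinal fat of 129SvEv mice, induced over 2 days and kept in differentiation for 1 more day with rosiglitazone, a PPARγ agonist used to drive browning. They were then reverse transfected with 50 nM of an LNA Gapmer, either ASO1 against *Ctcflos* transcript 1 (*Ctcflos* KD, 3 libraries) or an oligonucleotide without a cellular target (NC ctrl, 3 libraries), and harvested 24 h later. Libraries were made with a stranded total RNA kit. Both groups share strain, rosiglitazone and transfection and differ in the oligonucleotide, so loss of *Ctcflos* and presence of the ASO1 sequence cannot be told apart in these libraries. The sources do not say whether the 3 libraries of a group came from separate cultures, and p-values measure the spread between these libraries.

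An LNA Gapmer is a short DNA strand with locked nucleic acids at both ends. It pairs with a complementary RNA, and RNase H then cuts the RNA strand of the hybrid in the nucleus or the cytoplasm. Locked nucleic acids raise the affinity of pairing, and RNAs that pair with only part of such an oligonucleotide are a known concern in antisense experiments.

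The site that ASO1 is complementary to and the matching windows are printed because their alignment is what defines the 7 genes. Each line gives 30 bases of the transcript, 5′ to 3′, taken from Gencode vM21, and capitals mark the bases of the contiguous match to the site. *Psme2* is shown beside them because it has the longest match outside *Ctcflos*, with 14 bases, and is not one of the 7 genes.
Ctcflos: ttcccagAATCCTCCACCCAAGCcagggga
Ddx41: aaaagggcATCCTCCACCCAAcacccattc
Smg6: cacctggAATCCTCCACCCAcatctttgga
Dsel: atactacctaCCTCCACCCAAGCatgctga
Pigh: tagtaagtATCCTCCACCCAAaagtattgt
Plxnb2: agaggtgcagCCTCCACCCAAGCggcggca
Vamp8: ctcctgtccTCCTCCACCCAAGtgctgctc
9030617O03Rik: tggggccagTCCTCCACCCAAGacctcaca
Psme2: tatcccagATCCTCCACCCAAGgatgacga

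The site lies at chr2:173114615-173114630 (GRCm38, plus strand), in exon 3 of 3 of *Ctcflos* transcript 1 (ENSMUST00000144256), where *Ctcfl* overlaps on the opposite strand. All 7 genes hold site bases 4 to 13, counted from the 5′ end of the site, a core of 10 bases that reads CCTCCACCCA. On the transcript strand, this core occurred in the longest transcript of 350 of 55341 annotated genes, or 0.632%. *Smg6* matches site bases 1 to 13, *Ddx41* and *Pigh* bases 2 to 14, *Vamp8* and *9030617O03Rik* bases 3 to 15, and *Dsel* and *Plxnb2* bases 4 to 16. Outside the run, *9030617O03Rik* differs from the site by A2G and C16A and *Plxnb2* by A1C and T3G (the base of *Ctcflos*, its position in the site, the base of the gene), so that 14 of 16 bases are identical in each. The other 5 genes share no base outside the run. The match occurs once in each of the 7 transcripts.

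In *Ddx41*, *Dsel*, *Plxnb2* and *Smg6* the match lies in coding sequence. The *Ddx41* site is in exon 7 of 17 (chr13:55534447-55534459, minus strand), the *Dsel* site in exon 2 of 2 (chr1:111862491-111862503, minus strand), the *Plxnb2* site in exon 22 of 38 (chr15:89160651-89160663, minus strand) and the *Smg6* site in exon 12 of 19 (chr11:75042002-75042014, plus strand). In *Pigh*, *Vamp8* and *9030617O03Rik* it lies in the 3′ UTR. The *Pigh* site is in exon 3 of 3 (chr12:79082047-79082059, minus strand), the *Vamp8* site in exon 2 of 2 (chr6:72385423-72385435, minus strand) and the *9030617O03Rik* site in exon 13 of 13 (chr12:100872473-100872485, plus strand). No other annotated gene overlaps any of these 7 sites. Elsewhere, *Pigh* overlaps *Plekhh1* and *Smg6* overlaps *Srr* on the opposite strand, and whether the counting used the strand is not given in the sources used here, so a share of their reads could belong to these neighbours.

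**Figure D1:**
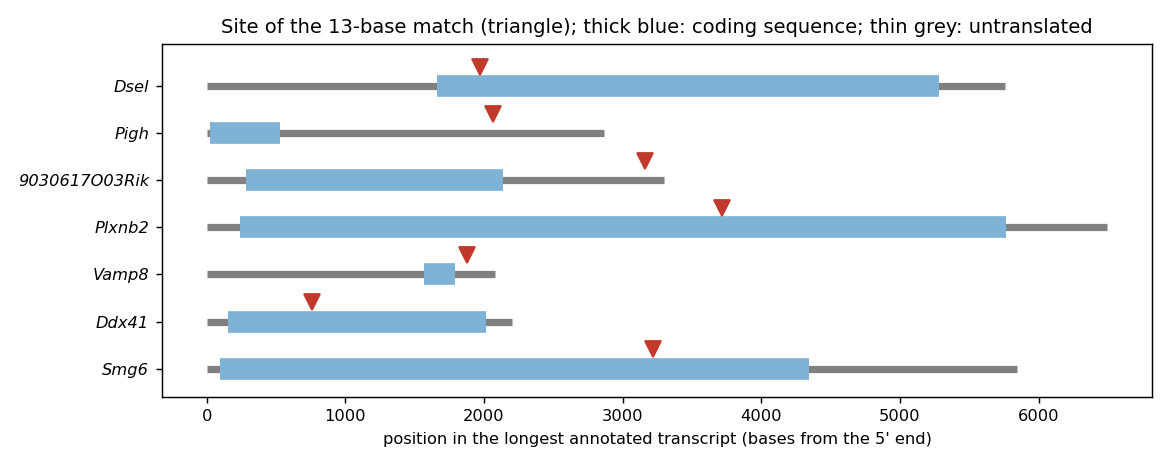
Position of the match (triangle) in the longest annotated transcript of each gene, in bases from the 5′ end; thick blue bars are coding sequence and thin grey bars untranslated sequence. The match starts at base 752 of 2205 in *Ddx41*, in coding sequence, and at base 3158 of 3295 in *9030617O03Rik*, near the 3′ end.

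*Ctcflos*, listed as 1300015D01Rik, checks the labels. On transcript 1, which holds the site, 9, 5 and 28 reads were recovered from the RPKM values of the *Ctcflos* KD libraries and 107, 125 and 102 from those of the controls. It kept 14.1% of control. The RefSeq transcript of *Ctcflos*, which Gencode pairs with a transcript without the site, kept 18.2%. It had 30, 27 and 31 reads in *Ctcflos* KD and 187, 172 and 150 in controls. At the gene level 16.1% of the control mean remained (log2 fold change -0.66 ± 0.084, SE, adjusted p = 0.025, limma without a filter on low values). The call was lost when any single library other than KD replicate 3 was left out (adjusted p of 0.062 to 0.13, limma), with log2 fold changes that stayed between -0.68 and -0.63 there. KD replicate 3 kept the most *Ctcflos*, and every KD library lay below every control. Library depth, recovered in the same way, ranged from 60.8 to 79.2 mio reads. This is above the approximate read number per sample that the paper states for these paired-end libraries. Whether the reads of a pair were counted singly is not known, so read numbers given here may not be numbers of fragments. Brite and brown adipocyte markers were present, with a summed level of 70.4 to 91.5 RPKM in *Ctcflos* KD, compared with 123 to 194 RPKM in controls, and 3 of 6 were called lower. General adipocyte markers summed to 3948 to 5304 RPKM in *Ctcflos* KD, below the 5602 to 6229 RPKM of controls, and 1 of 6, the adipogenic factor *Cebpa*, was called lower (56.4% of control, adjusted p = 0.038, limma). The sums of preadipocyte and stromal markers overlapped (179 to 399 RPKM and 275 to 449 RPKM), and 1 of 4 tested, *Pdgfra*, was called lower (60.1% of control, adjusted p = 0.010, limma). *Ly6a*, which makes up most of the sum, was at 81.2% of control. *Pdgfrb*, *Cd34* and the weak *Dlk1* went the other way, at 115, 124 and 136%. The groups overlapped in each of these genes. The macrophage markers *Cd68*, *Csf1r* and *Ptprc* summed to 3.26 to 5.43 RPKM in the KD libraries and 0.940 to 2.80 RPKM in NC ctrl, with *Ptprc* under 1 RPKM in every library and 1 of them past the filter and called higher, and the endothelial markers were all under 1. Whether these marker differences have a part in the values below was not tested.

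Every one of the 7 genes had lower abundance in each *Ctcflos* KD library than in any control library. The mean remaining in *Ctcflos* KD ranged from 22.3% of control in *Dsel* to 61.5% in *Smg6*. Across all genes tested, 21.9% had every KD library below every control. The decrease passed an adjusted p of 0.05 (limma-trend on log2(RPKM + 1), Benjamini-Hochberg over 11701 genes) in 6 of the 7, where 12.4% of all genes tested were called lower and 24.0% were called in either direction. The exception was *Smg6*. The log2 fold change was negative in all 7, as in 46.8% of all genes tested, and its median was -0.69, against 0.028 over all genes tested. In bulk RNA, fewer cells of a type and less RNA per cell cannot be told apart.

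**Figure D2:**
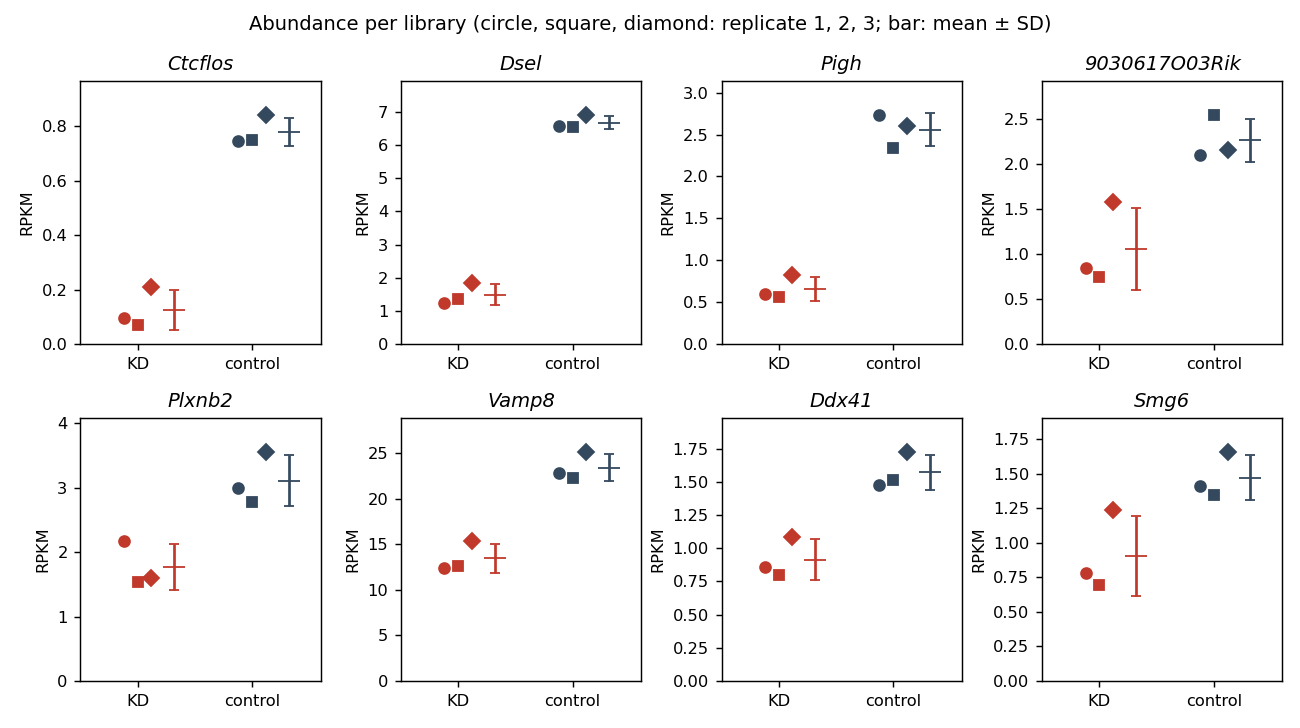
RPKM of *Ctcflos* and the 7 genes in each library (circle, square and diamond are replicates 1, 2 and 3), with the mean ± SD of 3 libraries beside the points and each vertical axis starting at 0. No *Ctcflos* KD library reaches the level of a control library in any panel, and KD replicate 3 is the highest KD library in 6 of the 7 genes.

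*Dsel* and *Pigh* act in the assembly of glycans and had the most negative fold changes of the 7 genes. *Dsel* encodes a dermatan sulfate epimerase-like protein of glycosaminoglycan synthesis. It was measured at 1.24, 1.37 and 1.85 RPKM in *Ctcflos* KD, compared with 6.58, 6.56 and 6.89 RPKM in controls. The KD libraries were far below the controls, with a spread much smaller than the gap. This leaves 22.3% of the control mean, a log2 fold change of -1.63 ± 0.11 (SE, adjusted p = 0.0020, limma). Only 11 of the 11701 genes tested had a lower fold change. On its RefSeq transcript, 544, 614 and 659 reads in *Ctcflos* KD stood against 2999, 3020 and 2524 in controls.

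*Pigh* encodes a subunit of the GPI-N-acetylglucosaminyltransferase, the enzyme of the first step of GPI anchor synthesis. Its level was 0.597, 0.562 and 0.820 RPKM in the KD libraries and 2.73, 2.34 and 2.60 RPKM in NC ctrl. The groups were well apart here too. The remaining level was 25.8% of control and the log2 fold change -1.10 ± 0.10 (SE, adjusted p = 0.0020, limma). Its RefSeq transcript had 144, 146 and 171 reads in *Ctcflos* KD and 738, 619 and 551 in controls. *Dsel* and *Pigh* were called in each of 12 alternative settings, with adjusted p of at most 0.020 and 0.021.

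*Plxnb2* and *Vamp8* work at membranes. *Plxnb2* encodes plexin B2, a cell surface receptor of class 4 semaphorins, and had 2.18, 1.53 and 1.59 RPKM in *Ctcflos* KD against 3.00, 2.78 and 3.55 RPKM in controls. It is the only one of the 7 in which KD replicate 1 and not replicate 3 had the highest KD value. It kept 56.8% of control, a log2 fold change of -0.57 ± 0.12 (SE, adjusted p = 0.017, limma).

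*Vamp8* encodes a SNARE of late endosomes and autophagosomes and was the most abundant of the 7 genes per transcript length. It was measured at 12.4, 12.6 and 15.3 RPKM in *Ctcflos* KD, compared with 22.8, 22.3 and 25.1 RPKM in controls. The level fell to 57.4% of control, with a log2 fold change of -0.76 ± 0.12 (SE, adjusted p = 0.0080, limma). Its RefSeq transcript had 735, 745 and 731 reads in *Ctcflos* KD and 1384, 1388 and 1266 in controls.

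*Ddx41* and *Smg6* act on nucleic acids. *Ddx41* encodes a DEAD-box helicase with roles in splicing and in the sensing of cytosolic DNA. It had 0.857, 0.798 and 1.09 RPKM in the KD libraries and 1.48, 1.52 and 1.72 RPKM in NC ctrl, without overlap. This is 58.1% of control and a log2 fold change of -0.43 ± 0.098 (SE, adjusted p = 0.020, limma).

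*Smg6* encodes an endonuclease of nonsense-mediated mRNA decay. Its values were 0.785, 0.696 and 1.24 RPKM in *Ctcflos* KD, compared with 1.41, 1.35 and 1.66 RPKM in controls. KD replicate 3 came close to the lowest control and the other two KD libraries were well below. The level was 61.5% of control, with a log2 fold change of -0.38 ± 0.12 (SE) that did not pass the threshold (adjusted p = 0.057, limma). Without KD replicate 3 the log2 fold change was -0.50 and the adjusted p 0.0070.

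*9030617O03Rik*, named *Dglucy* in Gencode, encodes the mitochondrial D-glutamate cyclase. It had 0.850, 0.746 and 1.57 RPKM in the KD libraries and 2.10, 2.54 and 2.16 RPKM in NC ctrl. KD replicate 3 was again the highest KD library and still below all controls. The remaining level was 46.7% of control, with a log2 fold change of -0.69 ± 0.15 (SE, adjusted p = 0.019, limma).

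*Smg6* and *9030617O03Rik* are the genes of this group that span over 100 kb of genome, with 238626 and 117925 bp. Of all 918 tested genes with a span of at least 100 kb, 45.0% were called lower, with a median log2 fold change of -0.34. The other 5 genes span 5481 (*Vamp8*) to 25240 bp (*Plxnb2*), and of the 8484 shorter genes 10.2% were called lower, with a median of 0.052. The part of gene span in these values was not tested.

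KD replicate 3, the KD library with the most remaining *Ctcflos*, had the highest KD value in 6 of the 7 genes. It was the highest KD library in 75.9% of all genes called lower and in 29.8% of all genes tested. With each library left out in turn, 2 to 7 of the 7 genes were called. There were 3 without KD replicate 2, 3 without NC ctrl replicate 1, 2 (*Dsel* and *Pigh*) without NC ctrl replicate 3, and 7 without KD replicate 3. Over all genes tested, 4784 were called without KD replicate 3, beside 2803 with all libraries, so the gain came with a general rise in calls. For the other left-out libraries the count over all genes is not given here. *Ddx41* and *9030617O03Rik* lost the call when any single library other than KD replicate 3 was left out, with adjusted p up to 0.093 and 0.070. *Plxnb2* lost it without KD replicate 2, NC ctrl replicate 1 or NC ctrl replicate 3 (adjusted p up to 0.080), and *Vamp8* without NC ctrl replicate 3 (adjusted p = 0.052). All these p-values are from limma. The log2 fold change of every member stayed negative in all 87 refits. As every KD library lay below every control, leaving out a library could not have changed this sign.

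The remaining level followed no order along the site. *Dsel* and *Plxnb2* match the same bases 4 to 16 and kept 22.3 and 56.8% of control. *Pigh* and *Ddx41* share bases 2 to 14 and kept 25.8 and 58.1%. *Vamp8* and *9030617O03Rik* share bases 3 to 15 and kept 57.4 and 46.7%. The genes with 14 identical bases, *Plxnb2* and *9030617O03Rik*, lay between those with 13. Genes with the match in coding sequence kept 22.3 to 61.5% and genes with it in the 3′ UTR kept 25.8 to 57.4%, so the ranges overlapped. With so few genes in each class these orders are a description only.

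**Figure D3:**
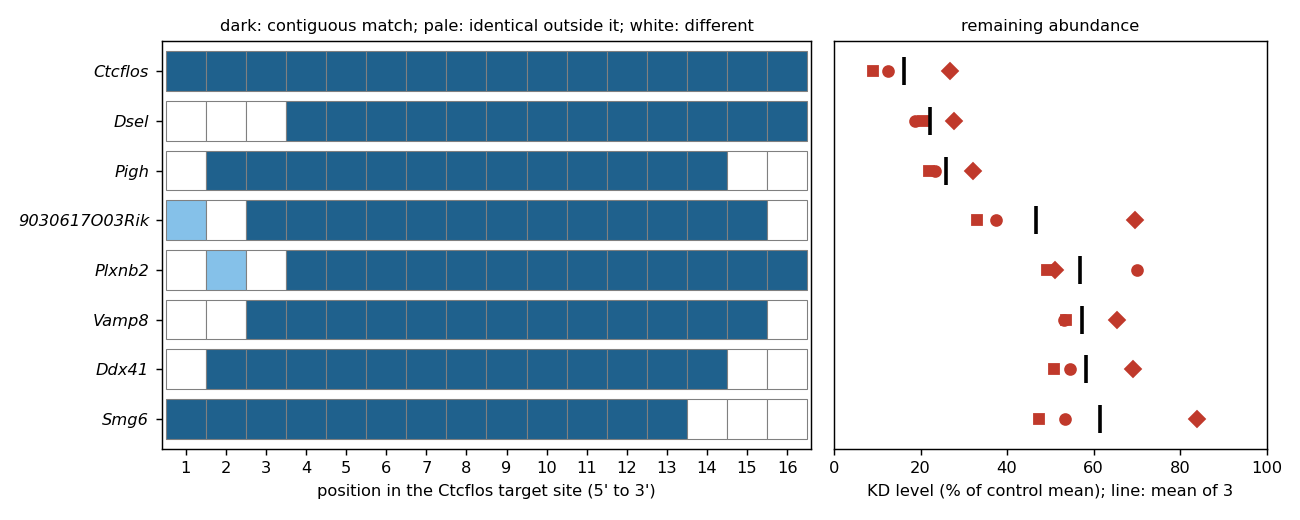
Left, the 16 positions of the ASO1 site from 5′ to 3′ in *Ctcflos* and the 7 genes (dark, contiguous match; pale, identical outside the match; white, different). Right, RPKM of each *Ctcflos* KD library as percent of the control mean (circle, square and diamond are replicates 1, 2 and 3, the vertical line is their mean), which runs from 22.3% in *Dsel* to 61.5% in *Smg6* and does not follow the position of the match.

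The genes also differed in their control level per transcript length, in the order *Vamp8* (23.4 ± 1.5 RPKM, SD, n = 3), *Dsel* (6.68 ± 0.19), *Plxnb2* (3.11 ± 0.40), *Pigh* (2.56 ± 0.20), *9030617O03Rik* (2.27 ± 0.24), *Ddx41* (1.57 ± 0.13) and *Smg6* (1.47 ± 0.16). The ranges of *Pigh* and *9030617O03Rik* overlapped, as did those of *Ddx41* and *Smg6*. The smaller log2 fold changes belong to the weakly expressed *Ddx41* and *Smg6*, for which the added 1 RPKM shrinks the change. With 0.1 added in its place, they were -0.73 for *Ddx41* and -0.68 for *Smg6*.

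The table lists each gene under several transcript accessions, which share reads and are not independent. The 7 genes have 43 accessions, of which 36 had a mean of at least 1 RPKM. Of these, 33 were called lower and 0 higher (limma, adjusted over 67403 accessions, of which 14.7% were called lower and 26.0% in either direction). The 3 not called were accessions of *Smg6*, where the other 3 passed. Accessions of a gene had similar remaining levels, with the widest spread in *Smg6*. Those past the filter kept 21.4 to 23.0% of control in *Dsel*, 24.7 to 26.5% in *Pigh*, 45.9 to 47.4% in *9030617O03Rik*, 55.4 to 61.2% in *Plxnb2*, 56.4 to 59.0% in *Vamp8*, 59.6% in *Ddx41* and 50.0 to 68.9% in *Smg6*. Usage of accessions, tested with diffSplice in limma, changed in 0 of the 7 genes at an adjusted p under 0.05 and in 0 at an unadjusted p under 0.05, where 0.658% of 10027 genes were called. The lowest unadjusted p, for *Pigh*, gave an adjusted p of 1 in limma. Without the filter on low values *Pigh* was called for usage. Its 2 weakest accessions then enter, and on the log2(RPKM + 1) scale weak accessions show smaller changes by construction.

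**Figure D4:**
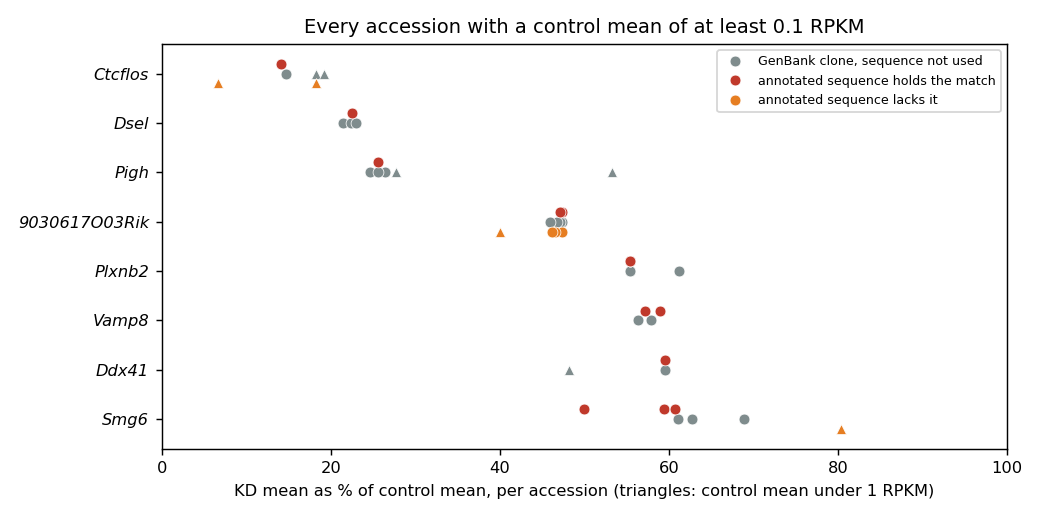
Mean RPKM in *Ctcflos* KD as percent of the control mean for each accession with a control mean of at least 0.1 RPKM, by gene (colour shows whether the annotated sequence holds the match, triangles have a control mean under 1 RPKM). Accessions past the filter lie close together in *Dsel* (21.4 to 23.0%) and further apart in *Smg6* (50.0 to 68.9%). Weak accessions of *Pigh* and *Smg6* lie apart at 53.3 and 80.4%. Annotated accessions of *9030617O03Rik* past the filter, which can share reads, fall together with and without the match (46.2 to 47.4%). A weak accession of *9030617O03Rik* without the match lies at 40.1%.

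Only *9030617O03Rik* had annotated accessions of both kinds past the filter. ENSMUST00000069782, which spans the 3′ UTR site, had 1.09, 0.994 and 2.14 RPKM in *Ctcflos* KD, compared with 2.75, 3.35 and 2.82 RPKM in controls, or 47.4% of control. ENSMUST00000110069, ENSMUST00000154603 and ENSMUST00000167322 lack the 13-base match and end before it, and they kept 47.4, 46.5 and 46.2%. The log2 ratio of the accession with the match to the mean of those without it was 0.12 ± 0.045 in *Ctcflos* KD and 0.11 ± 0.034 in controls (SD, n = 3). The difference of 0.0088 was smaller than the spread between libraries (exact two-sided permutation test, p = 0.8, where 0.1 is the smallest p possible). These accessions and ENSMUST00000069782 overlap upstream of the site and can share reads there. ENSMUST00000069782 had 270, 246 and 429 reads in *Ctcflos* KD and 706, 874 and 584 in controls. ENSMUST00000110069 had 267, 246 and 427 reads in *Ctcflos* KD and 703, 863 and 584 in controls. Such close counts leave almost no reads to tell them apart. The ratio therefore cannot show whether transcripts with the match changed differently from those without it.

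In *Smg6* a comparison of this kind was possible only without the filter. ENSMUST00000135522 is annotated as a transcript with a retained intron, so its reads can include intron sequence. It ends upstream of the site and had 29, 27 and 41 reads in *Ctcflos* KD and 44, 56 and 31 in controls, so the groups overlapped. The 2 annotated accessions with the match, ENSMUST00000130145 and ENSMUST00000140197, kept 59.5 and 50.0% of control. Their mean relative to ENSMUST00000135522 was lower in *Ctcflos* KD by a log2 ratio of -0.62 (1.55 against 2.18), without overlap and at the smallest p the design allows (exact two-sided permutation test, p = 0.1). Here 0.1 RPKM was added to both sides of the ratio, whereas nothing was added for *9030617O03Rik* above. This rests on few reads of ENSMUST00000135522.

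Shorter matches give the surroundings of the 13-base threshold. Among genes tested whose longest match was 12 bases, 9 of 14 were called lower and 1 higher, with a median log2 fold change of -0.54. With 11 bases, 21 of 62 were called lower and 2 higher, with a median of -0.28. With 10 bases 26.8% of 265 genes and with 9 bases 18.5% of 1081 genes were called lower, with medians of -0.099 and -0.016. Of the 7973 genes with at most 8 bases, 971 were called lower, with a median of 0.035. These classes passed the same filter, and no test of the classes against each other was made. The median gene span was 8.99 kb with 13 bases, 23.1 kb with 12, 31.1 kb with 11, 29.5 kb with 10 and 29.6 kb with 9. Over all genes tested with an annotated span it was 20.6 kb. The part of gene span or transcript length in these medians was not tested.

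**Figure D5:**
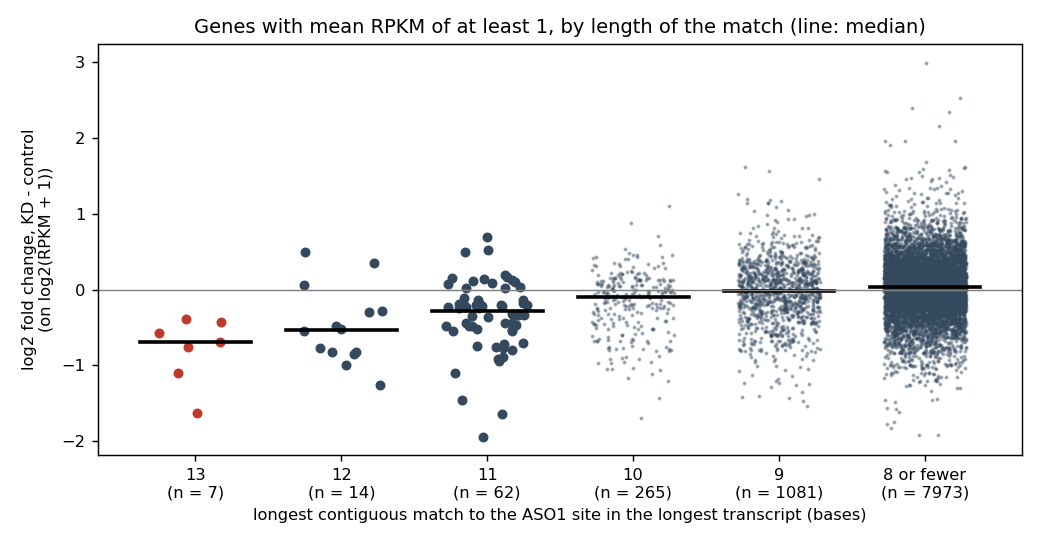
Log2 fold change (*Ctcflos* KD minus control, on log2(RPKM + 1)) of each gene with a mean RPKM of at least 1, by the longest contiguous match to the ASO1 site in its longest transcript; black lines are medians. The 7 genes with 13 bases (red) lie between -1.63 and -0.38, and the median moves from -0.69 at 13 bases to 0.035 at 8 bases or fewer.

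The 12-base genes called lower were led by *Isg20l2*, an exoribonuclease of ribosome biogenesis, with 1.64, 1.35 and 2.67 RPKM in the KD libraries and 5.15, 6.19 and 6.05 RPKM in NC ctrl (log2 fold change -1.26, adjusted p = 0.0049, limma). The transcriptional repressor *Zhx2* followed with 33.7% of control (log2 fold change -0.99). *Calu*, *Syde2*, *Nacc2*, *Elk1*, *Rnf181*, *Hivep2* and *Mcrs1* were called lower with log2 fold changes of -0.85 to -0.29. *Klf3*, a zinc finger repressor of adipogenesis, was called higher (log2 fold change 0.35, adjusted p = 0.032, limma). *Adipoq*, chosen after its values were seen because it encodes the adipocyte hormone adiponectin, also holds a 12-base match and had 826 ± 208 RPKM in *Ctcflos* KD, compared with 1187 ± 53 RPKM in controls (SD, n = 3), a difference that did not pass (adjusted p = 0.069, limma).

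Genes with 13 or more matching bases outside the 7 were all under a mean of 1 RPKM and were read from the fit without a filter, in which 4.71% of 38335 genes were called. *Psme2*, a proteasome activator subunit with the 14-base match, had 0.924, 0.854 and 0.804 RPKM in the KD libraries and 0.955, 0.744 and 0.774 RPKM in NC ctrl. The groups overlapped and the mean was 104% of control (log2 fold change 0.030 ± 0.091, SE, adjusted p = 0.87, limma). The window printed for *Psme2* is identical in its copy *Psme2b*, which has no symbol in the table, so its values are uncertain where reads fit both.

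*Ube2v2*, *Fyb* and *Mlph* hold 13 bases and had means of 64.8, 64.6 and 72.1% of control, with overlapping groups and adjusted p of 0.31, 0.30 and 0.53 (limma). All these were weakly expressed, with control means of 0.773, 0.401 and 0.0812 RPKM. The *Fyb* mean rests almost wholly on the clone AK161411, whose sequence was not searched for the match. This clone had 3.26, 3.89 and 2.89 RPKM in *Ctcflos* KD and 5.86, 3.28 and 5.62 RPKM in controls. The RefSeq transcript of *Fyb* had 0.0099, 0 and 0 RPKM in *Ctcflos* KD and 0.0240, 0.0707 and 0.0535 RPKM in controls. *Myo16* is listed at 0 in all 6 libraries. *Gm5370*, a pseudogene with 13 bases, has no symbol in the table. In the same fit, *Dsel*, *Pigh* and *Vamp8* were called (adjusted p = 0.016, 0.016 and 0.028, limma), and the adjusted p of *Plxnb2*, *Ddx41*, *9030617O03Rik* and *Smg6* was 0.051, 0.056, 0.058 and 0.13.

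*Phactr2* and *Kctd1* hold the 13-base match only in transcripts other than their longest. *Phactr2*, a phosphatase and actin regulator, had 0.157, 0.110 and 0.201 RPKM in *Ctcflos* KD, compared with 0.689, 0.730 and 0.756 RPKM in controls, without overlap. It kept 21.5% (log2 fold change -0.58 ± 0.076, SE, adjusted p = 0.025, limma). Its site in ENSMUST00000105546 is in coding sequence, in exon 5 of 13, but the table does not list this transcript. ENSMUST00000079698, the *Phactr2* transcript of Ensembl that is listed, lacks the match. It had 0.184, 0.123 and 0.211 RPKM in *Ctcflos* KD and 0.738, 0.661 and 0.605 RPKM in controls. Whether the other *Phactr2* accessions hold the match was not determined. *Kctd1* kept 46.9%, again with every KD library below every control, and did not pass (adjusted p = 0.067, limma). Both are long genes, spanning 266696 and 182762 bp.

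Genes that work with the 7 were compared in 7 lists, without the members themselves. Over the lists, 25 of 90 genes tested were called, or 27.8%, close to the 24.0% of all genes tested, and 17 of them were lower, or 18.9% beside 12.4%. Without the filter on low values 7 were called. The genes named below are therefore single values and show nothing particular to a list. Of 18 GPI anchor synthesis genes tested beside *Pigh*, 3 were called lower (16.7%) and 1 higher, with a median log2 fold change of -0.070. *Piga*, the catalytic subunit of the enzyme that *Pigh* belongs to, had 1.46, 1.53 and 1.29 RPKM in the KD libraries and 2.46, 2.37 and 2.71 RPKM in NC ctrl (log2 fold change -0.53, adjusted p = 0.0092, limma). *Pigg*, which modifies the anchor with ethanolamine phosphate, was lower at 63.2% of control, and the mannosyltransferase *Pigv* was higher at 243%. Of 15 genes of dermatan and chondroitin sulfate synthesis beside *Dsel*, 4 were called lower and 1 higher, with a median of -0.066. The chain-initiating *Csgalnact1* was called lower (31.6% of control) and its paralog *Csgalnact2* higher (145%). The sulfotransferase *Chst13* was also lower, at 51.5%.

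Of 10 plexins, semaphorins and partners beside *Plxnb2*, 4 were called lower and 0 higher, with a median of -0.24. They include *Met*, a receptor tyrosine kinase that associates with B plexins, with a log2 fold change of -0.67, the guanine nucleotide exchange factor *Arhgef11* with -0.45 and the semaphorin co-receptor *Nrp2* with -0.39. These 3 genes span over 100 kb, as do *Csgalnact1*, *Nbas* and *Vti1a* among the other partner genes named as lower, a class in which 45.0% of all genes were called lower. Of 12 late endosomal and autophagosomal SNAREs beside *Vamp8*, 3 were called lower and 0 higher, with a median of -0.13. *Stx17* and *Snap29*, which form the autophagosomal fusion complex with *Vamp8*, kept 49.1 and 73.7% of control, and *Vti1a* kept 48.7%.

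Of 14 genes of nonsense-mediated decay beside *Smg6*, 1 was called lower (7.14%) and 3 higher, with a median of 0.20. *Nbas* was lower at 42.0% of control, and *Smg8* and *Casc3* were higher at 150% and 168%. Of 11 DEAD-box helicases and DNA-sensing genes beside *Ddx41*, 1 was lower (*Ddx17*, 72.1%) and 2 were higher, among them *Mb21d1*, which encodes the DNA sensor cGAS (201%). Of 10 genes of glutamate and D-amino acid metabolism beside *9030617O03Rik*, the glutathione-cleaving *Ggt5* was lower (50.5%) and glutamine synthetase *Glul* higher (148%). No list was tested as a whole.

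For each gene called, the 3 genes with the most similar profile over the 6 libraries on log2(RPKM + 1) were read out as a description. *Mcu* and *Atp8b1* were among those of *Dsel*. With *Pigh* these were *Cpd*, *Slc10a7* and *Dclk1*, with Pearson's r above those of *Plxnb2*, whose nearest were *Bin1*, the clone AK040829 and *Steap3* (r = 0.994, 0.993 and 0.992). *Vamp8* was nearest to *Mrps9*, *Cnot10* and *Mrpl48*, *Ddx41* to *Fech*, *Atg4a* and *Ubac2*, and *9030617O03Rik* to *Meis1*, *Esyt2* and a gene whose symbol the table writes as a date. All of these profiles share the 6 libraries and the step between the groups, and nothing is drawn from these values of r.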

How the data were processed

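RNA-seq was analysed in 6 libraries, 3 of *Ctcflos* KD and 3 of NC ctrl, grouped by the sample labels. The authors deposited 1 table of RPKM values per transcript accession, with 168326 lines, of which 305 exact repeats were removed. How it was made is not given in the sources used here. For the splice analysis of these libraries the study aligned reads with STAR to GRCm38. Where Gencode gives the transcript length, low values were whole multiples of 1 read (within 0.05 reads) in at least 95.2% of cases, which gave depths of 75.5, 75.1 and 60.8 mio reads for *Ctcflos* KD and 78.0, 79.2 and 62.9 mio for controls.

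RPKM was averaged over the accessions of a symbol, and log2(RPKM + 1) was tested with limma-trend in genes, or accessions, with a mean of at least 1, with Benjamini-Hochberg adjustment over all of them. Usage was tested with diffSplice (Simes p). Genes under the filter, *Ctcflos* among them, were taken from a fit of all 38335 genes above 0 in any library. Single values were compared by exact permutation tests. Fits were tested on simulated data. Fold changes on this scale understate changes of weak genes.

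The ASO1 site was located as the only 16-base window of *Ctcflos* transcript 1 with a 13-base stretch in the longest transcript of all 7 genes. That all 7 hold a match thus follows from this choice. The reverse complement of the window is the ASO1 sequence that the paper lists. Matches of the site were searched in Gencode vM21 transcripts on the transcript strand. Of 55341 genes, 25453 were matched to a symbol of the table. Introns were not analysed here. The members and lists were chosen with earlier results of these data known. The text names the 7 genes and *Ctcflos*, the called genes with a 12-base match, at most 3 called genes per partner list by smallest p and the 3 nearest profiles of each called member. 1 gene named by this rule is not reported here. Genes with 13 or more bases outside the 7 are named because they meet the sequence rule, in part only in other transcripts. Alternatives were a pseudocount of 0.1, no filter, a replicate block, median-of-ratios scaling, other summaries of accessions and leaving out each library. The fits were run in R 4.3.3 with limma 3.58.1, and all else in Python 3.11.15 with pandas 2.3.3, matplotlib 3.10.9 and numpy 2.4.6.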

Additional observations from a re-analysis of the deposited data

How the results depend on the processing

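Of 87 refits of single members, all 87 gave a negative log2 fold change, 67 left the call as it was, 17 lost it and 3, all for *Smg6*, gained it. The sign was fixed in advance where a library was left out, because every KD library lay below every control. The count of members called was 6, and was 3 without the filter and 3 with Ensembl accessions alone, where only 3 members could be tested. With one library left out it was 2 to 7, for the accessions 13 to 36 instead of 33. Accession usage, called in 0 members, was called in 1 without the filter. The log2 ratio difference in *9030617O03Rik* ranged from -0.0097 to 0.034 with one library left out, and it was negative without KD replicate 3 or NC ctrl replicate 3. Partner genes called fell from 25 to 7 without the filter and to 12 with the replicate block. *Ctcflos* had a log2 fold change of -0.72 to -0.63 with one library left out, with adjusted p of 0.0097 to 0.13 (limma). The sources used here do not say whether same-numbered libraries are paired. Their deviations from the group means correlated at 0.287, -0.288 and -0.418. The 2 libraries numbered 3 had the lowest depths of their groups, 60.8 and 62.9 mio reads. With 3 libraries per group these values cannot settle whether replicates share a batch. With the replicate block, the log2 fold change of *Ctcflos* was -0.66 with an adjusted p of 0.11 (limma), 6 of the 7 genes were called as without it, and *Smg6* was not called. Over all genes tested, 1671 were called with the block, beside 2803 without it. The search of introns was not run. For these moves the cause was not tested beyond the smaller number of libraries or genes. *Ctcflos* itself rests on few reads in *Ctcflos* KD.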
